A study of Mus musculus with 9 samples.

Results

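The genes of the cell cycle and of DNA replication were examined in whole mouse hearts under pressure load. The set was a fixed list of 42 symbols, chosen with earlier results of these data known. A member was any listed gene to which the platform annotation assigned a probe set. This was the case for 40 of the 42, among 20239 named genes. Ccnb1 and Pcna had no named probe set and were not analysed here. By role, 14 of 15 listed cyclins, kinases and regulators, 9 of 10 replication genes and 17 of 17 genes of mitosis and cytokinesis were measured.

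RNA came from whole hearts of male C57BL/6 mice, with 3 hearts in each of 3 groups and 1 Affymetrix array per heart. The TAC-HDAC4-NT group received an adeno-associated virus coding for amino acids 1 to 201 of histone deacetylase 4 (HDAC4) and then transverse aortic constriction (TAC), an operation that narrows the aorta and loads the left ventricle with pressure. The TAC-luciferase group received the same kind of virus coding for luciferase, a control protein, and the same operation. The sham group received the luciferase virus and an operation without constriction. Every animal, sham included, therefore carried a virus whose cargo was under an MLC (myosin light chain) promoter, a kind of promoter used to direct expression to heart muscle. The virus was given at 8 weeks of age, surgery followed after 4 weeks, and hearts were collected 4 weeks after that. No sham group received the HDAC4 fragment, so TAC-HDAC4-NT hearts differed from sham hearts in both surgery and cargo.

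Cells enter the cycle when D-type cyclins activate Cdk4 and Cdk6, which releases E2F transcription factors to switch on the genes of DNA replication. A later wave of genes, driven by a FOXM1 and B-MYB programme, builds the spindle and carries out mitosis and cytokinesis. Adult heart muscle cells rarely divide, and dividing cells of a loaded adult heart are mainly non-muscle cells such as fibroblasts, endothelial cells and leukocytes.

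Values are log2 expression (RMA), and each fold change is a difference of group means on that scale, with its standard error (SE) from 1 limma fit over all 9 arrays. A gene is said to have risen or fallen where its Benjamini-Hochberg adjusted p over all 20239 genes was under 0.05. The mean of 8 cardiomyocyte markers, such as Myh6 and Tnnt2, was log2 13.1 to 13.3 in every heart, so the defining markers of the labelled tissue were present. Arrays of 1 group correlated at a Pearson r of 0.9905 to 0.9973 across genes (a description of the arrays, since genes are not replicates). TAC-luciferase heart 1 stood closer to the TAC-HDAC4-NT hearts (0.9943 to 0.9945) than to the others of its own group (0.9905 and 0.9911). There were 3 arrays per group, and that number limits the precision.

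Under pressure load with the control virus, a larger share of these genes rose than of all genes. The list was chosen with earlier results of these data known, so the contrast with all genes is only a description. In TAC-luciferase over sham 23 of 40 members rose and 0 fell (57.5% of the members, where 6.49% of all genes rose and 8.95% fell). The members' median log2 fold change was 0.22 and 38 of 40 lay above 0, whereas the median of all genes was -0.003. Every TAC-luciferase heart lay above every sham heart for 35 members, or 87.5%, against 12.6% of all genes. The changes were small for most members. Only Ccna2, Ccnb2, Ccnd2, Rrm2 and Ube2c rose at least 1.5-fold. Of the 23 risen members 5 were low on the scale, namely Foxm1, Bub1, Kif11, Prc1 and Ect2. Each had fewer than 3 of 9 arrays above the 40th percentile of all values (log2 5.66). With whole-heart RNA, more dividing cells and more of these transcripts per cell cannot be told apart. The number of risen members was 8, 11 and 9 without sham heart 1, 2 or 3 (and 1 member, Cdkn1b, fell without sham heart 3), was 11, 14 and 12 without TAC-luciferase heart 1, 2 or 3, and was 17 to 28 without a TAC-HDAC4-NT heart. Over all genes 951 to 1468 rose with 1 array left out, against 1314 in the main fit. With arrays weighted by their fit 10 members rose and 0 fell (25.0%). Of all 20239 genes 1225 then rose and 1620 fell, or 14.06% in either direction.

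Loaded hearts that carried the HDAC4 fragment also had risen members and no fallen ones against sham. In TAC-HDAC4-NT over sham 14 of 40 members rose and 0 fell (35.0%, where 6.21% of all genes rose and 7.41% fell). Their median was 0.19, 38 of 40 lay above 0, and the groups did not overlap for 28 members (70.0%, against 14.8% of all genes). The direct comparison of the TAC groups, TAC-HDAC4-NT over TAC-luciferase, called 0 of 40 members in limma, where 0.0494% of all genes passed, 0.0247% higher and 0.0247% lower. At an unadjusted p under 0.05 it had 5 members (12.5%, against 11.5% of all genes). When arrays were weighted 2 passed (5.0%, against 1.72% of all genes). The number of risen members against sham was 7, 27 and 7 without TAC-HDAC4-NT heart 1, 2 or 3 and 8, 9 and 7 without sham heart 1, 2 or 3. Over all genes 823, 1025 and 895 rose in the former fits and 1029, 1072 and 994 in the latter, against 1257 in the main fit.

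**Figure D1:**
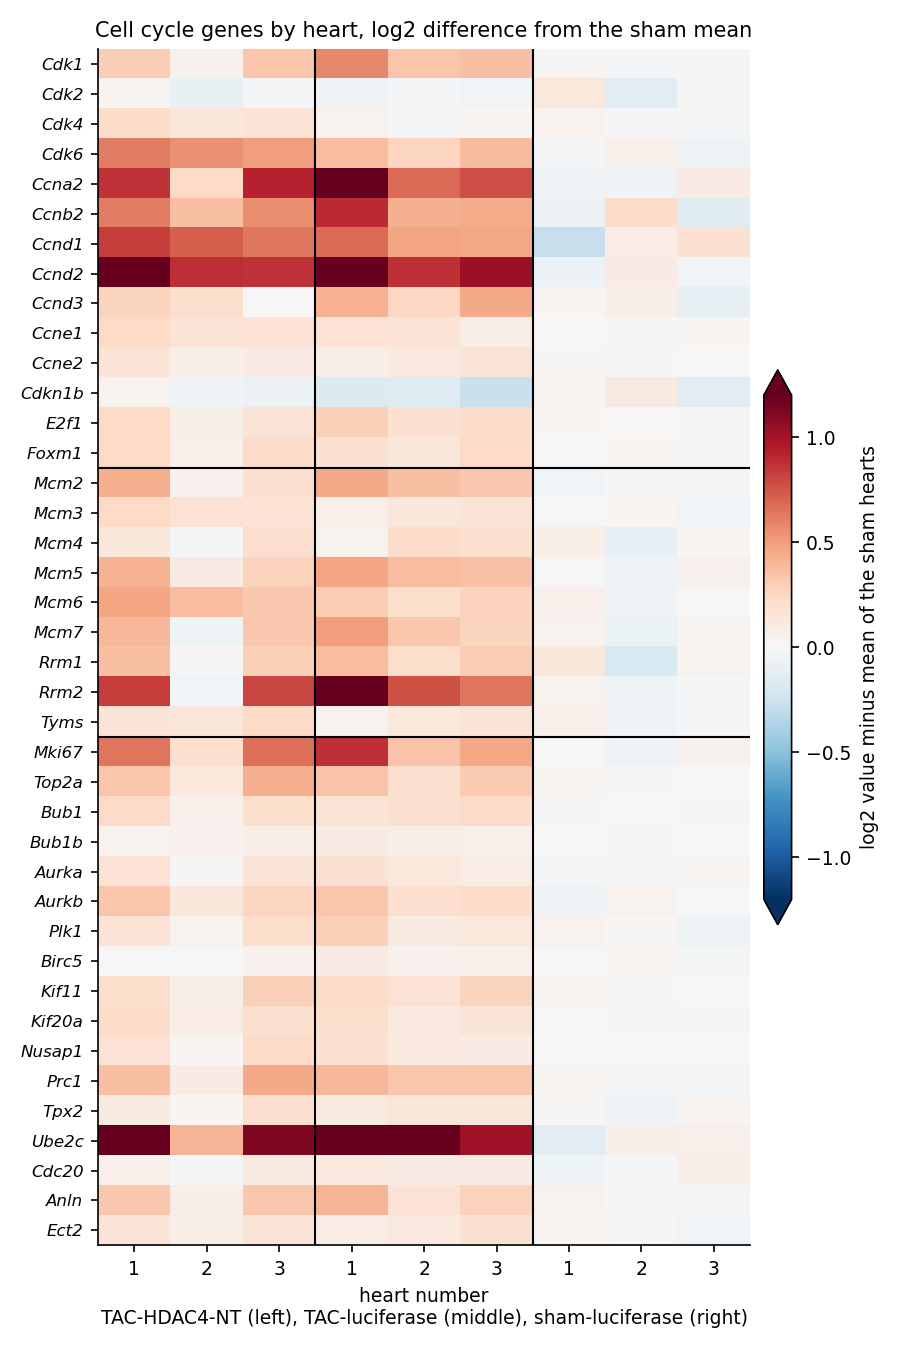
Log2 value minus the mean of the 3 sham hearts (colour scale) for the 40 measured members (rows, by role) in each heart (columns: TAC-HDAC4-NT, TAC-luciferase, sham). Most members are above the sham mean in both TAC groups, and TAC-HDAC4-NT heart 2 is paler than hearts 1 and 3 of its group.

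Promoters are shown because many genes of the cell cycle are known to share short promoter motifs. RefSeq promoter windows (assembly GRCm38.p6, 250 bases before to 50 after the annotated start) were at hand for 31 of the 40 members, in 35 windows. Both strands were searched for the cell cycle genes homology region (CHR; TTTGAA or TTCGAA), for the CCAAT box (CCAAT) and for E2F sites (TTGGCGC or TTCCCGC, and in a further form TTCGCGC). A CHR was found in 51.4% of the members' windows and in 19.2% of all 32851 windows. CCAAT boxes were in 74.3% against 37.4%, and E2F letters in 31.4% against 8.1%. The members' windows also had a higher median GC content, 59.3% against 52.7%, whose part in these shares was not tested. A match describes letters in a window and does not show that a factor binds there.

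The 250 bases before the start are given for the 2 members of each role with a window that rose most in TAC-luciferase over sham. Ccnb2 lies at chr9:70421555-70421804 (minus strand), Cdk1 at chr10:69352913-69353162 (minus), Rrm2 at chr12:24708004-24708253 (plus), Mcm5 at chr8:75109259-75109508 (plus), Ube2c at chr2:164769679-164769928 (plus) and Prc1 at chr7:80294201-80294450 (plus). Each runs 5′ to 3′ on the gene's own strand, and capitals mark the motifs on either strand, overlapping ones merged.
Ccnb2: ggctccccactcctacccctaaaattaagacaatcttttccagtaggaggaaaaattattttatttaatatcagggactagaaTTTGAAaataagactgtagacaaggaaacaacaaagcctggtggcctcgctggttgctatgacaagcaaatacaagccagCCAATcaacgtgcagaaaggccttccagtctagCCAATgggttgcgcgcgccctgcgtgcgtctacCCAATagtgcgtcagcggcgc
Cdk1: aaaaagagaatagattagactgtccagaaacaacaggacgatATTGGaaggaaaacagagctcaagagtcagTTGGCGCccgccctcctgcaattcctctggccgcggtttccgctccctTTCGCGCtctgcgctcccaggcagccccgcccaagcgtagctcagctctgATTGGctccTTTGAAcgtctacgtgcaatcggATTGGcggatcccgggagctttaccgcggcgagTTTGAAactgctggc
Rrm2: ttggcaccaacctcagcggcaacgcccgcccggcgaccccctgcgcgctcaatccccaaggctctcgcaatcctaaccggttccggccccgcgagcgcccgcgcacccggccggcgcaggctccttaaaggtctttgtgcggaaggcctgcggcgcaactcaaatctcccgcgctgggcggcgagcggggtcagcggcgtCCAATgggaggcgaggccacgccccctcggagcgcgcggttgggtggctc
Mcm5: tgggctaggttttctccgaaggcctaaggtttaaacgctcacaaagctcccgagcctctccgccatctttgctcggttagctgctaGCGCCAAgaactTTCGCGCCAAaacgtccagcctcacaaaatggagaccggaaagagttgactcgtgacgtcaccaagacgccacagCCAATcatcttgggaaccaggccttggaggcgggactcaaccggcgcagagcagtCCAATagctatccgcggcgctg
Ube2c: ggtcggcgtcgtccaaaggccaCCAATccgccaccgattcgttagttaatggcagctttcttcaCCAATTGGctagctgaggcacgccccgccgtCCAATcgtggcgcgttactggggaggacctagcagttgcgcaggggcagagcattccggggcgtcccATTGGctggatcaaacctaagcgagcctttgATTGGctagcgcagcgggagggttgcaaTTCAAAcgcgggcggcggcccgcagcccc
Prc1: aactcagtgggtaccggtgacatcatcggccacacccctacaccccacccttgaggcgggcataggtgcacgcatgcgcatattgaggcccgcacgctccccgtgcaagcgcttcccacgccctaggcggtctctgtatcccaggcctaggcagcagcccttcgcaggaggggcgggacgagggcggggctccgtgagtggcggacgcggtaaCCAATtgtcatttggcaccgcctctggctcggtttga

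Cdk1 held all 3 kinds of motif, with TTTGAA beginning 15 and 71 bases before the start and E2F letters beginning 130 and 178 bases before it. Mcm5 held 3 E2F matches in a short stretch, beginning 164, 152 and 149 bases before the start, and 2 of them overlap. Ube2c held 6 CCAAT boxes, of which 2 overlap, and a CHR beginning 29 bases before the start. Ccnb2 had CCAAT boxes beginning 87, 54 and 21 bases before the start, a CHR 167 bases before it, and a further TTTGAA beginning at base 5 after the start, outside the printed stretch. Prc1 had 1 CCAAT box and a TTTGAA that spans the start, and Rrm2 had 1 CCAAT box and neither other motif in its window.

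The D-type cyclins, which open the way into the cycle, and their kinase partners were measured in all hearts. Ccnd2 stood at log2 11.34, 10.98 and 10.96 in TAC-HDAC4-NT hearts 1 to 3, at 11.33, 10.98 and 11.14 in TAC-luciferase hearts and at 10.03, 10.20 and 10.07 in sham hearts. All 6 TAC hearts lay above all 3 sham hearts, and the TAC groups overlapped. Ccnd2 rose 1.99-fold in TAC-HDAC4-NT over sham (log2 0.99, SE 0.12, adjusted p 0.00176) and 2.07-fold in TAC-luciferase over sham (log2 1.05, SE 0.12, adjusted p 0.00133).

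Ccnd1 had 9.76, 9.65 and 9.57 in TAC-HDAC4-NT hearts, 9.62, 9.41 and 9.40 in TAC-luciferase hearts and 8.66, 9.03 and 9.12 in sham hearts. Here too both TAC groups lay wholly above sham, and they overlapped each other. It rose 1.65-fold in TAC-HDAC4-NT over sham (log2 0.73, SE 0.12, adjusted p 0.00728) and 1.45-fold in TAC-luciferase over sham (log2 0.54, SE 0.12, adjusted p 0.023), the second being lost without TAC-luciferase heart 1 or 2 (adjusted p up to 0.0595) and also with only the 6 arrays compared or with the replicate number as a block (adjusted p up to 0.0634). Ccnd3 had 8.21, 8.16 and 7.95 in TAC-HDAC4-NT hearts, 8.36, 8.20 and 8.40 in TAC-luciferase hearts and 7.97, 8.03 and 7.84 in sham hearts. Only its TAC-luciferase hearts stood clear of sham. It rose by log2 0.37 in TAC-luciferase over sham (SE 0.09, adjusted p 0.0236), a call lost without TAC-luciferase heart 1 or 3 or sham heart 1 or 3 (adjusted p up to 0.0759), and stood at 0.16 in TAC-HDAC4-NT over sham (adjusted p 0.302).

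Cdk6 had 7.55, 7.46 and 7.42 in TAC-HDAC4-NT hearts, 7.29, 7.18 and 7.30 in TAC-luciferase hearts and 6.90, 6.98 and 6.87 in sham hearts. The 3 groups did not overlap at all, in that order from high to low. The rise was 1.47-fold in TAC-HDAC4-NT over sham (log2 0.56, SE 0.05, adjusted p 0.000483) and 1.26-fold in TAC-luciferase over sham (log2 0.34, SE 0.05, adjusted p 0.00367). Cdk4 had 9.68, 9.59 and 9.62 in TAC-HDAC4-NT hearts, 9.50, 9.43 and 9.48 in TAC-luciferase hearts and 9.50, 9.43 and 9.44 in sham hearts. Its TAC-HDAC4-NT hearts lay above the other 6, which overlapped. Cdk4 rose 1.13-fold in TAC-HDAC4-NT over sham (log2 0.17, SE 0.03, adjusted p 0.0117, and 0.11 with a trended and robust prior), and stood at 0.01 in TAC-luciferase over sham (adjusted p 0.87).

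**Figure D2:**
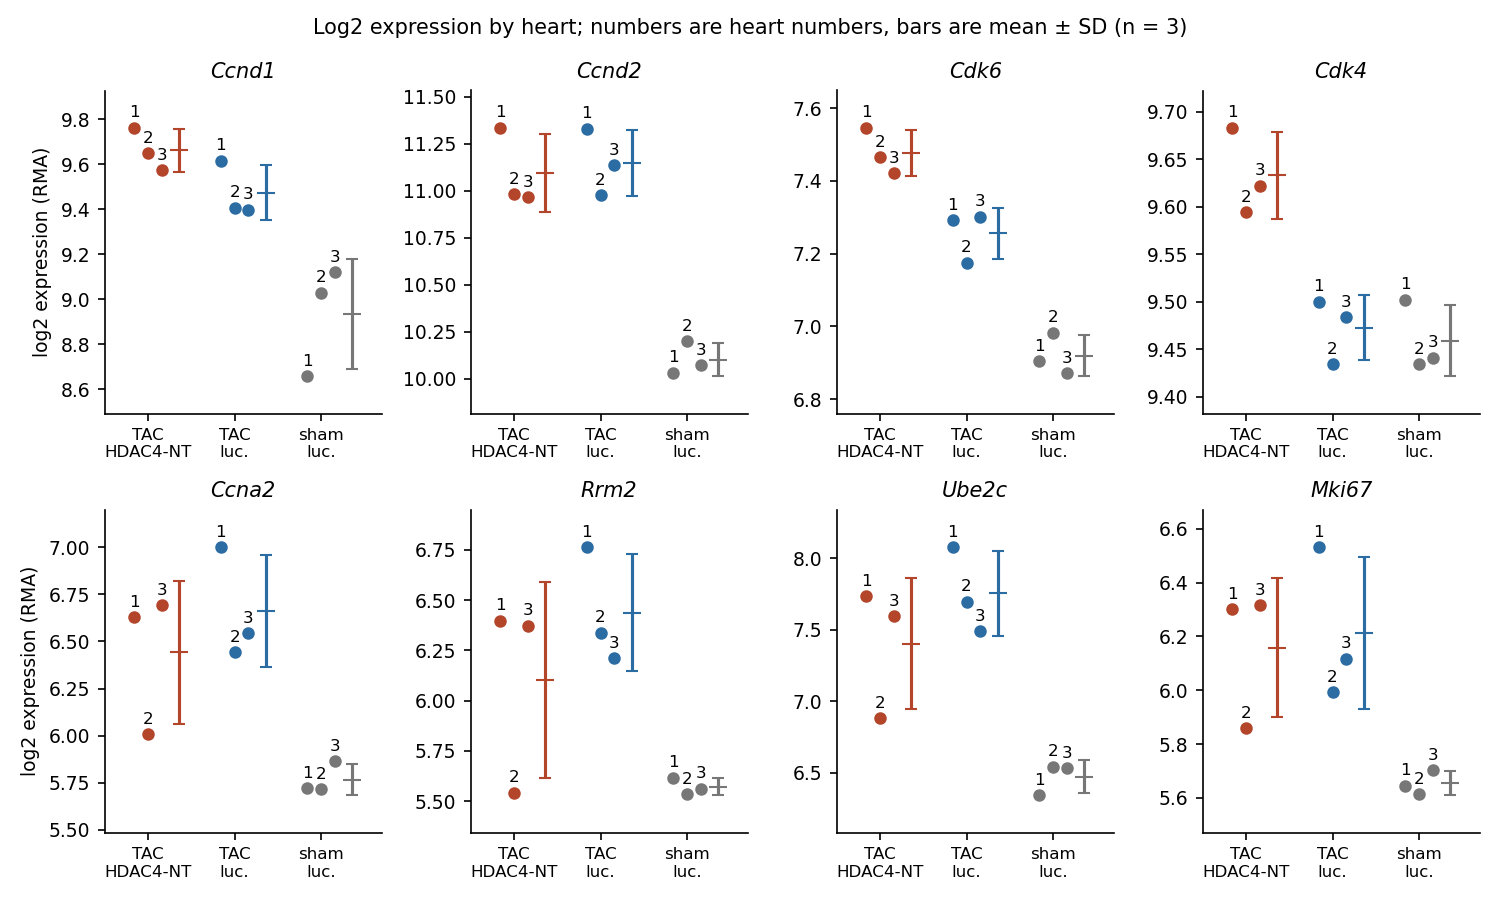
Log2 expression (RMA) of 8 members, 1 point per heart with its number, and mean ± SD (n = 3) beside it, for TAC-HDAC4-NT (left), TAC-luciferase (middle) and sham (right). The axes do not start at 0. In the TAC-HDAC4-NT group heart 2 lies near another heart for Ccnd1, Ccnd2, Cdk6 and Cdk4, and is well below both others for Ccna2, Rrm2, Ube2c and Mki67.

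Cyclins and a kinase of later phases, Ccna2, Ccnb2 and Cdk1, rose in TAC-luciferase over sham and did not pass in TAC-HDAC4-NT over sham. Ccna2, the cyclin of S phase and G2, had 6.630, 6.007 and 6.692 in TAC-HDAC4-NT hearts, 7.001, 6.444 and 6.543 in TAC-luciferase hearts and 5.721, 5.715 and 5.864 in sham hearts. Each TAC heart lay above each sham heart, and TAC-HDAC4-NT heart 2 was the nearest to sham. It rose 1.86-fold in TAC-luciferase over sham (log2 0.90, SE 0.20, adjusted p 0.0234), a call lost without TAC-luciferase heart 1 or any 1 sham heart (adjusted p up to 0.0739), and stood at 0.68 in TAC-HDAC4-NT over sham (SE 0.20, adjusted p 0.0701).

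Cdk1, the kinase that drives mitosis, had 5.78, 5.54 and 5.82 in TAC-HDAC4-NT hearts, 6.06, 5.82 and 5.85 in TAC-luciferase hearts and 5.50, 5.46 and 5.50 in sham hearts. The 3 groups did not overlap, with TAC-luciferase highest, although TAC-HDAC4-NT heart 3 and TAC-luciferase heart 2 nearly met. Cdk1 rose by 0.42 in TAC-luciferase over sham (SE 0.09, adjusted p 0.0141), and stood at 0.23 in TAC-HDAC4-NT over sham (adjusted p 0.135). Ccnb2, a mitotic B-type cyclin, had 6.87, 6.61 and 6.81 in TAC-HDAC4-NT hearts, 7.15, 6.67 and 6.69 in TAC-luciferase hearts and 6.18, 6.47 and 6.10 in sham hearts. Sham heart 2 came near the lower TAC hearts without reaching them. Ccnb2 rose by log2 0.59 in TAC-luciferase over sham (SE 0.15, adjusted p 0.0362) and lost the call without any 1 of TAC-HDAC4-NT hearts 1 and 3, TAC-luciferase hearts 1 and 3 and sham hearts 1 and 3 (adjusted p up to 0.111). It stood at 0.51 in TAC-HDAC4-NT over sham (adjusted p 0.0637).

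Among the regulators, E2f1, a transcription factor of S-phase genes, rose by 0.23 in TAC-luciferase over sham (SE 0.04, adjusted p 0.0128). It had 5.86, 5.69 and 5.78 in TAC-HDAC4-NT hearts, 5.90, 5.80 and 5.83 in TAC-luciferase hearts and 5.64, 5.62 and 5.60 in sham hearts. Foxm1, a transcription factor of mitotic genes, rose by 0.19 in the same comparison (adjusted p 0.0452), a call that held in 1 of 9 fits with an array left out, the one without TAC-HDAC4-NT heart 2 (adjusted p 0.0111 there and up to 0.13 in the others). Ccne1, a cyclin of the G1 to S transition, rose by 0.19 in TAC-HDAC4-NT over sham (SE 0.03, adjusted p 0.0069) and by 0.14 in TAC-luciferase over sham (SE 0.03, adjusted p 0.0263). The second of these was lost without TAC-luciferase heart 1 or 2 or sham heart 1 or 2 (adjusted p up to 0.0879) under either filter on low values and with only the 6 arrays compared (adjusted p up to 0.0608). Its relative Ccne2 stood at 0.11 and 0.12 (adjusted p 0.0691 and 0.0527), and Cdk2, the partner of both, at -0.03 in either comparison (adjusted p 0.862 and 0.829).

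Cdkn1b, which encodes the inhibitor p27, ran the other way. Its values were 6.89, 6.80 and 6.78 in TAC-HDAC4-NT hearts, 6.69, 6.70 and 6.59 in TAC-luciferase hearts and 6.88, 6.97 and 6.72 in sham hearts. The TAC-luciferase hearts lay below the other 6, by log2 -0.19 from sham (SE 0.06, adjusted p 0.0885, and 0.0215 without sham heart 3). It was the 1 member whose TAC-luciferase group lay wholly below sham, a pattern that 16.5% of all genes showed.

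The replication genes code for the MCM helicase, which unwinds DNA at the fork, and for enzymes that make its building blocks. Of the 9 measured, 3 rose in TAC-HDAC4-NT over sham (median log2 fold change 0.23) and 4 rose in TAC-luciferase over sham (median 0.30). The risen shares were 33.3% and 44.4%, against 6.21% and 6.49% of all genes. All 9 lay above 0 in both. Mcm6 had 6.30, 6.20 and 6.15 in TAC-HDAC4-NT hearts, 6.13, 6.03 and 6.10 in TAC-luciferase hearts and 5.89, 5.77 and 5.82 in sham hearts. The groups did not overlap, with TAC-HDAC4-NT highest. Mcm6 rose 1.31-fold in TAC-HDAC4-NT over sham (log2 0.39, SE 0.05, adjusted p 0.00187) and 1.20-fold in TAC-luciferase over sham (log2 0.26, SE 0.05, adjusted p 0.00983).

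Mcm5 and Mcm2 had another order of hearts. Mcm5 stood at 6.38, 6.06 and 6.23 in TAC-HDAC4-NT hearts, 6.42, 6.32 and 6.31 in TAC-luciferase hearts and 5.94, 5.91 and 6.01 in sham hearts, so TAC-HDAC4-NT heart 2 was close to sham. It rose by 0.40 in TAC-luciferase over sham (SE 0.08, adjusted p 0.0121), with 0.27 in TAC-HDAC4-NT over sham (adjusted p 0.06). Mcm2 stood at 6.39, 6.01 and 6.16 in TAC-HDAC4-NT hearts, 6.41, 6.32 and 6.28 in TAC-luciferase hearts and 5.93, 5.97 and 5.97 in sham hearts. It rose by 0.38 in TAC-luciferase over sham (SE 0.09, adjusted p 0.0234), a call lost without TAC-luciferase heart 1 or 2 or any 1 sham heart (adjusted p up to 0.0753). Mcm3 rose by 0.20 in TAC-HDAC4-NT over sham (SE 0.04, adjusted p 0.00901), with 0.12 in TAC-luciferase over sham (adjusted p 0.0588). Mcm4 and Mcm7 passed in neither comparison, Mcm7 with 6.26, 5.81 and 6.18 in TAC-HDAC4-NT hearts, 6.36, 6.20 and 6.13 in TAC-luciferase hearts and 5.90, 5.78 and 5.89 in sham hearts.

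Rrm2, the regulated small subunit of ribonucleotide reductase, had the widest spread between hearts of 1 group among the 40 members. It had 6.40, 5.54 and 6.37 in TAC-HDAC4-NT hearts, 6.76, 6.34 and 6.21 in TAC-luciferase hearts and 5.62, 5.53 and 5.56 in sham hearts. TAC-HDAC4-NT heart 2 was at the sham level, and the other 5 TAC hearts were well above it. That level was low on the scale, with 0 sham arrays above log2 5.66. Rrm2 rose 1.82-fold in TAC-luciferase over sham (log2 0.87, SE 0.24, adjusted p 0.0466), a call that held in 1 of 9 fits with an array left out, the one without TAC-HDAC4-NT heart 2 (adjusted p 0.00774 there and up to 0.113 in the others). It stood at 0.53 in TAC-HDAC4-NT over sham (SE 0.24, adjusted p 0.208). Rrm1, the large subunit, did not pass in either (0.22 and 0.30, adjusted p 0.261 and 0.12). Tyms, thymidylate synthase, rose by 0.18 in TAC-HDAC4-NT over sham (adjusted p 0.032), which was lost without any 1 of that group's hearts or sham heart 2 or 3 (adjusted p up to 0.105). It was low on the scale, with 0 of 9 arrays above log2 5.66.

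Genes of mitosis and cytokinesis lay above sham throughout. All 17 were above 0 against sham in both TAC groups, with a median of 0.17 in each, and 6 rose in TAC-HDAC4-NT and 9 in TAC-luciferase. The risen shares were 35.3% in TAC-HDAC4-NT and 52.9% in TAC-luciferase, against 6.21% and 6.49% of all genes. Each of the 17 had its 3 TAC-luciferase hearts above its 3 sham hearts, a pattern that 12.6% of all genes showed. For 12 of them (70.6%) the 3 TAC-HDAC4-NT hearts lay above the 3 sham hearts, against 14.8% of all genes.

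Ube2c, the ubiquitin-conjugating enzyme that works with the anaphase-promoting complex, had 7.74, 6.88 and 7.60 in TAC-HDAC4-NT hearts, 8.08, 7.70 and 7.49 in TAC-luciferase hearts and 6.34, 6.54 and 6.53 in sham hearts. Every TAC heart was above sham, TAC-HDAC4-NT heart 2 by the least. It rose 2.43-fold in TAC-luciferase over sham (log2 1.28, SE 0.23, adjusted p 0.00917), the largest change of any member in that comparison. In TAC-HDAC4-NT over sham the rise was 1.91-fold (log2 0.93, SE 0.23, adjusted p 0.036), and that call was lost without any 1 of TAC-HDAC4-NT hearts 1 and 3, TAC-luciferase heart 2 and the sham hearts (adjusted p up to 0.119).

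Mki67, which encodes the proliferation antigen Ki-67, had 6.30, 5.86 and 6.32 in TAC-HDAC4-NT hearts, 6.53, 5.99 and 6.12 in TAC-luciferase hearts and 5.65, 5.61 and 5.70 in sham hearts. All TAC hearts exceeded all sham hearts, but the spread within the TAC groups was wide. Its log2 fold change was 0.50 in TAC-HDAC4-NT over sham (SE 0.16, adjusted p 0.0857, and 0.0343 without TAC-HDAC4-NT heart 2) and 0.56 in TAC-luciferase over sham (SE 0.16, adjusted p 0.0559, and 0.0338 without that heart). It also passed in TAC-HDAC4-NT over sham without TAC-luciferase heart 1.

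Prc1, a bundler of central spindle microtubules, had 5.63, 5.37 and 5.72 in TAC-HDAC4-NT hearts, 5.67, 5.60 and 5.60 in TAC-luciferase hearts and 5.30, 5.26 and 5.26 in sham hearts. Top2a, the topoisomerase that untangles sister chromatids, had 5.71, 5.50 and 5.81 in TAC-HDAC4-NT hearts, 5.72, 5.57 and 5.68 in TAC-luciferase hearts and 5.39, 5.35 and 5.37 in sham hearts. For both genes the sham hearts were close together and below all TAC hearts. Both were low on the scale, Prc1 with 2 of 9 arrays above log2 5.66 and Top2a with 4, and 0 sham arrays in either. Both rose in both comparisons, Prc1 by 0.30 and 0.35 (adjusted p 0.0425 and 0.022) and Top2a by 0.30 and 0.29 (adjusted p 0.0355 and 0.0393) in TAC-HDAC4-NT and TAC-luciferase over sham.

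The remaining risen genes moved by less. Aurkb, the kinase of the chromosomal passenger complex, rose by 0.24 and 0.25 in TAC-HDAC4-NT and TAC-luciferase over sham (adjusted p 0.0281 and 0.0238), Kif20a, a kinesin of cytokinesis, by 0.17 and 0.16 (adjusted p 0.0273 and 0.0299), and Bub1, a spindle checkpoint kinase, by 0.17 and 0.20 (adjusted p 0.0499 and 0.0242). In TAC-luciferase over sham 3 more rose, Anln (anillin, a scaffold of the contractile ring) by 0.29, Kif11, a motor of the bipolar spindle, by 0.22, and Ect2, an activator of RhoA in cytokinesis, by 0.13 (adjusted p 0.0467, 0.0304 and 0.0439). Bub1b, Aurka, Plk1, Birc5, Nusap1, Tpx2 and Cdc20 passed in neither comparison, with log2 fold changes between 0.02 and 0.17. Of the 9 mitotic genes that rose in TAC-luciferase over sham, Ube2c passed whichever of the 9 arrays was left out. Each of the other 8 was lost without 3 to 7 different single arrays, sham hearts 1 and 3 among them in each case (adjusted p up to 0.122). In TAC-HDAC4-NT over sham all 6 were lost without TAC-HDAC4-NT heart 1 or 3 and without sham heart 1 or 3, and some of them without other arrays too (adjusted p up to 0.158).

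**Figure D3:**
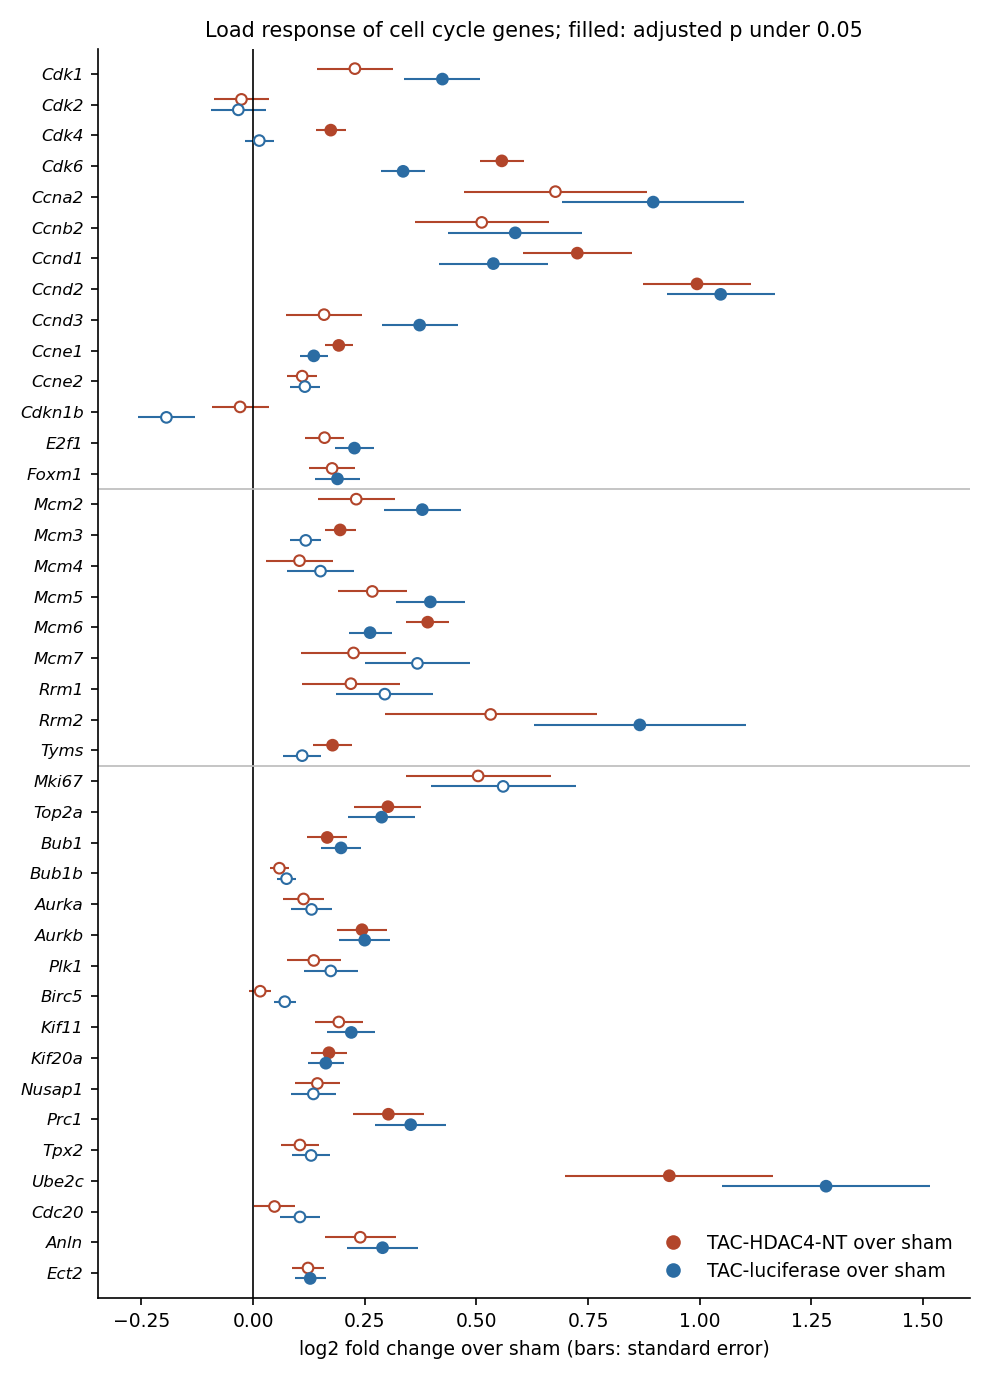
Log2 fold change over sham of the 40 members for TAC-HDAC4-NT (upper point of each pair) and TAC-luciferase (lower point), with standard errors, filled where the limma adjusted p was under 0.05. Nearly all points lie right of 0, and Ube2c, Ccnd2, Ccna2 and Rrm2 lie farthest out.

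Calls of the members differed in how far they rested on single arrays. In TAC-HDAC4-NT over sham Cdk4, Cdk6, Ccnd1, Ccnd2, Ccne1, Mcm3 and Mcm6 passed in each of the 9 fits with 1 array left out, and the other 7 did not. In TAC-luciferase over sham Cdk1, Cdk6, Ccnd2, E2f1, Mcm5, Mcm6 and Ube2c did so and the other 16 did not. Set side by side, 11 members rose in both, which is 78.6% of the 14 and 47.8% of the 23. The 2 comparisons share the sham arrays. Cdk4, Mcm3 and Tyms passed in TAC-HDAC4-NT over sham and not in TAC-luciferase over sham, and 12 members did the reverse. No such difference is a result by itself, since the direct comparison of the TAC groups called none of them.

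The comparison of TAC-HDAC4-NT with TAC-luciferase addresses the effect of the fragment under load. The members' log2 fold changes had a median of -0.03 (0.0 for all genes), with 12 above 0 and 28 below. The D-type cyclins Ccnd1, Ccnd2 and Ccnd3 stood at 0.19, -0.05 and -0.21 (adjusted p 0.655, 0.946 and 0.396). Their kinases Cdk4 and Cdk6 were on the higher side. Cdk4 stood at 0.16 (SE 0.03, adjusted p 0.131), with all 3 TAC-HDAC4-NT hearts above all TAC-luciferase hearts, and Cdk6 at 0.22 (SE 0.05, adjusted p 0.146), likewise without overlap. With weighted arrays these 2 passed (adjusted p 0.0446 and 0.0499). Cdkn1b, Mcm3 and Mcm6 were also higher without overlap, at 0.17, 0.08 and 0.13 (adjusted p 0.383, 0.45 and 0.361), and Birc5 and Cdk1 lower without overlap, at -0.06 and -0.20 (adjusted p 0.465 and 0.435). Higher without overlap were thus Cdk4, Cdk6, Cdkn1b, Mcm3 and Mcm6, or 12.5% of the members against 9.94% of all genes, and lower without overlap were 2 members, or 5.0% against 8.24% of all genes.

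Mitotic genes lay a little below TAC-luciferase on average, at a median of -0.03 with 14 of 17 below 0, and replication genes at -0.08 with 6 of 9 below 0. Without TAC-HDAC4-NT heart 2, singled out after the values were seen, both signs turned. The median was then 0.031 with 13 of 17 mitotic genes above 0, and 0.015 with 5 of 9 replication genes above 0. Over all 40 members it was then 0.025 with 28 above 0. Without any other single heart both medians stayed below 0. Without TAC-HDAC4-NT heart 1 or 3, 0 of 17 mitotic genes lay above 0. Without TAC-luciferase heart 1, 2 or 3 it was 8, 1 and 3 of 17, with a median of -0.005 without heart 1. The 95% intervals, not adjusted for the number of genes, ran from -0.89 at the lower end (Ube2c) to 0.47 at the upper end (Ccnd1), with a median half-width of 0.14. These intervals do not mark a limit of detection, since calls were made on limma p-values adjusted over all genes. The intervals of Cdk4 (0.084 to 0.236), Cdk6 (0.108 to 0.335), Cdkn1b (0.015 to 0.315) and Mcm6 (0.017 to 0.242) lay above 0. That of Ccnd3 (-0.413 to -0.016) lay below 0. None of these genes was called in the main fit (adjusted p 0.131, 0.146, 0.383, 0.361 and 0.396, in that order). With 3 hearts per group, a missed threshold does not show that the groups were alike.

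**Figure D4:**
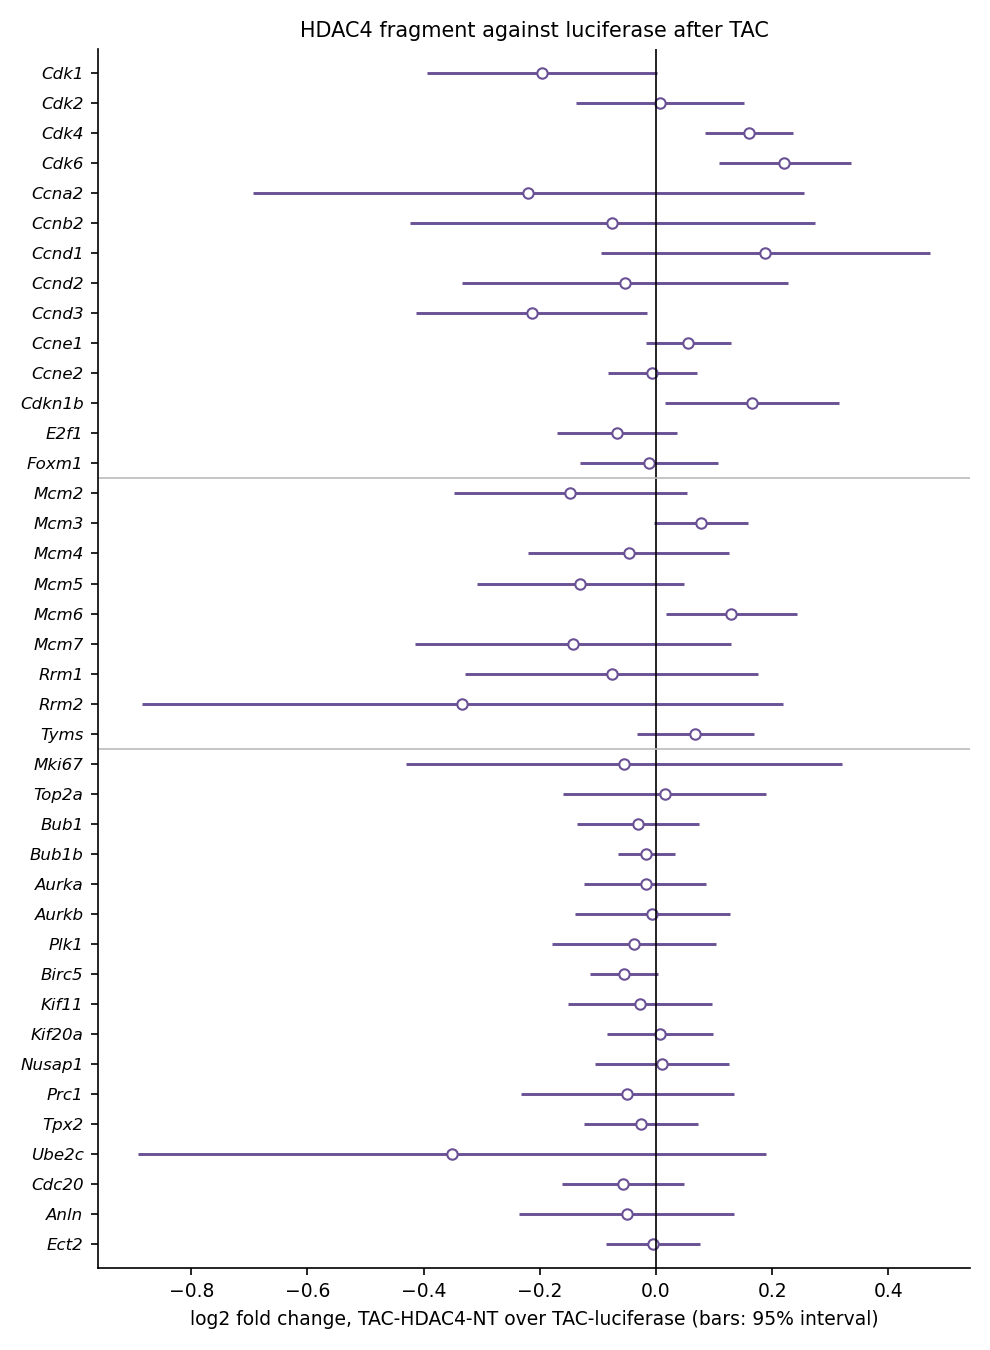
Log2 fold change of TAC-HDAC4-NT over TAC-luciferase for the 40 members with 95% intervals (not adjusted for the number of genes); no member passed the adjusted threshold. The intervals of Cdk4, Cdk6, Cdkn1b and Mcm6 lie right of 0 and that of Ccnd3 left of 0, and Rrm2, Ube2c and Ccna2 have the longest ones.

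Within the TAC-HDAC4-NT group, heart 2 stood apart for replication and mitotic genes. It was the lowest heart of its group for 33 of 40 members and the highest for 0, where over all genes it was lowest for 34.8% and highest for 34.3%. By role it was lowest for 9 of 14 cyclins, kinases and regulators, 8 of 9 replication genes and 16 of 17 mitotic genes. The mean over the 40 members lay 0.35, 0.14 and 0.31 log2 units above the sham mean in TAC-HDAC4-NT hearts 1 to 3 and 0.38, 0.26 and 0.28 above it in TAC-luciferase hearts. Members vary together within a heart, so these counts describe 1 heart and are no replicated comparison.

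For 17 members the mean of TAC-HDAC4-NT hearts 1 and 3 was at least 0.3 above sham. They were chosen after the values were seen, and choosing on hearts 1 and 3 by itself favours a lower heart 2. The shares below are therefore only a description. Heart 2 had very unequal shares of the rise of hearts 1 and 3 over sham. For Ccnd1, Cdk6, Mcm6 and Ccnd2 it had 97.5%, 96.7%, 93.3% and 84.0% of it. For Rrm2, Rrm1 and Mcm7 it had -3.7%, 4.6% and -14.3%, that is, about the sham level. For Cdk1, Mcm2, Ccna2, Mki67, Top2a and Ube2c it had between 17.4% and 34.3%. In all, 12 of the 17 had under 50%. Ccnb2 had 60.8%, and Anln, Prc1 and Mcm5 had 24.1%, 25.0% and 29.2%. The high shares belonged to Ccnd1, Ccnd2, Cdk6 and Mcm6, and the low ones to other genes of S phase and mitosis. Ccnd3 was not among the 17. Rrm2, Cdk1, Anln, Prc1 and Top2a had 0 sham arrays above log2 5.66, so their sham level was low on the scale.

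Among cell cycle genes that were not members, the place of heart 2 differed by list. It was lowest of its group for 44 of 52 genes of the kinetochore, spindle and chromosomes (84.6%) and for 31 of 46 of replication licensing, fork and nucleotide supply (67.4%). Of 33 inhibitors and other regulators it was lowest for 15 and highest for 9 (45.5% and 27.3%). Of 8 lymphocyte markers heart 2 was lowest for 6 and highest for 0. Their mean lay only 0.089, 0.032 and 0.081 above sham in hearts 1 to 3, and Cd3g, Cd79a and Ms4a1 had 0 arrays above log2 5.66. Of 9 endothelial markers heart 2 was lowest for 4 and highest for 3, and heart 3 was also lowest for 4. Of 10 fibroblast markers heart 2 was lowest for 3 and highest for 3. Of 8 cardiomyocyte and of 8 smooth muscle and pericyte markers it was lowest for 2 and highest for 3 in each list. Ties were given to the lowest-numbered heart, as for Actc1 (14.109 in hearts 1 to 3) and Pln (13.59 in hearts 1 and 2). Heart 2 was highest for 6 and lowest for 3 of 12 macrophage and myeloid markers. Both erythroid markers were highest in heart 2, with a mean 0.16 above sham there, against -0.26 and -0.22 in hearts 1 and 3. Its array correlated at 0.997 and 0.9962 with the other arrays of its group. In TAC-luciferase heart 1 was the highest for 27 of 40 members (39.4% over all genes), and it was also highest for 9 of 12 macrophage and 7 of 8 lymphocyte markers. It was highest too for 6 of 10 fibroblast markers and, with ties given in the same way, for 6 of 8 cardiomyocyte markers. For endothelial, smooth muscle and pericyte, and erythroid markers it was highest for 4 of 9, 1 of 8 and 1 of 2. The part of the numbers of leukocytes or other cells in these orders was not tested.

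Wider lists of cell cycle genes, which were not members, had smaller shares of calls. Of 52 measured genes of the kinetochore, spindle, chromosomes and cytokinesis, 3 rose in TAC-HDAC4-NT over sham and 8 in TAC-luciferase over sham, 0 fell in either, and the medians were 0.05 and 0.06. The risen share was 5.8% in TAC-HDAC4-NT, near the 6.21% of all genes, and 15.4% in TAC-luciferase, against 6.49% of all genes. Smc4, a condensin subunit, rose by 0.61 and 0.55 (adjusted p 0.00133 and 0.0018). Its values were 7.36, 7.11 and 7.23 in TAC-HDAC4-NT hearts, 7.27, 7.10 and 7.18 in TAC-luciferase hearts and 6.66, 6.64 and 6.59 in sham hearts, with both TAC groups clear of sham. Ckap2l, a spindle protein, rose by 0.28 and 0.43 (adjusted p 0.0363 and 0.00639), and Mad2l1 of the spindle checkpoint, Racgap1 of the central spindle and the kinetochore gene Cenpn rose in TAC-luciferase over sham by 0.51, 0.24 and 0.24 (adjusted p 0.0324, 0.0388 and 0.0076). Smc4 and Cenpn passed whichever array was left out. Ckap2l in TAC-HDAC4-NT over sham was lost without any 1 of TAC-HDAC4-NT hearts 1 and 3, TAC-luciferase heart 3 and the sham hearts (adjusted p up to 0.124), Mad2l1 without any 1 sham or TAC-luciferase heart (up to 0.0903), and Racgap1 without any of those or TAC-HDAC4-NT heart 1 (up to 0.122).

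Replication genes beyond the members were called about as often as other genes. Of 46 measured, 3 rose and 3 fell in either comparison with sham, or 6.5% each way, where 6.21% of all genes rose and 7.41% fell in TAC-HDAC4-NT over sham and 6.49% rose and 8.95% fell in TAC-luciferase over sham. Dut, which removes dUTP, fell in TAC-HDAC4-NT and TAC-luciferase over sham by 0.22 and 0.21 log2 units (adjusted p 0.0022 and 0.00286). Orc5, an origin recognition subunit, and Rfc1 of the clamp loader fell in TAC-luciferase over sham by 0.34 and 0.31 (adjusted p 0.0224 and 0.0081), and stood at -0.08 and -0.11 in TAC-HDAC4-NT over sham. Pold2, a DNA polymerase delta subunit, fell in TAC-HDAC4-NT over sham by 0.36, and Dnmt1, the maintenance DNA methyltransferase, rose by 0.28 (adjusted p 0.0263 and 0.0283). Orc5 was lost without TAC-luciferase heart 1 or 2 (adjusted p up to 0.074), Pold2 without TAC-HDAC4-NT heart 1 or 2 or sham heart 1 or 3 (up to 0.0841) and Dnmt1 without TAC-HDAC4-NT heart 1 or 3 or any 1 sham heart (up to 0.1).

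Inhibitors and other regulators had no risen gene. Of 33 measured, 0 rose and 3 fell in TAC-HDAC4-NT over sham (9.1% fallen, against 7.41% of all genes), and 0 rose and 4 fell in TAC-luciferase over sham (12.1%, against 8.95%). Tfdp2, a dimer partner of E2F factors, had 8.24, 8.26 and 8.24 in TAC-HDAC4-NT hearts, 7.95, 8.21 and 8.03 in TAC-luciferase hearts and 8.83, 8.79 and 8.99 in sham hearts. All TAC hearts lay below all sham hearts. Tfdp2 fell by 0.62 and 0.81 log2 units in TAC-HDAC4-NT and TAC-luciferase over sham (adjusted p 0.00144 and 0.000481), Ccnh, the cyclin of the Cdk7 kinase, by 0.35 and 0.52 (adjusted p 0.0048 and 0.000847), and Cdkn1c, the inhibitor p57, by 0.21 and 0.26 (adjusted p 0.00566 and 0.00189). Ccng1, a p53 target, fell by 0.18 in TAC-luciferase over sham (adjusted p 0.0113, and 0.0748 under cyclic loess scaling).

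Cdkn1a, which encodes the inhibitor p21, is named after its values were seen. It had 8.86, 9.15 and 9.09 in TAC-HDAC4-NT hearts, 10.06, 11.56 and 11.64 in TAC-luciferase hearts and 8.33, 9.26 and 10.23 in sham hearts. The TAC groups did not overlap, and the sham hearts were spread from below the TAC-HDAC4-NT hearts into the TAC-luciferase range. Cdkn1a stood at -2.06 in TAC-HDAC4-NT over TAC-luciferase (SE 0.55, adjusted p 0.201) and at 1.81 in TAC-luciferase over sham (SE 0.55, adjusted p 0.0647), so neither passed. None of the 131 genes measured on the 3 wider lists passed in TAC-HDAC4-NT over TAC-luciferase.

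Markers of other heart cells moved beside the members. Of all genes 6.21% rose and 7.41% fell in TAC-HDAC4-NT over sham, and 6.49% rose and 8.95% fell in TAC-luciferase over sham. Of 10 fibroblast markers 8 rose in TAC-HDAC4-NT over sham and 7 in TAC-luciferase over sham, among them Postn by 3.72 and 3.39, and their mean lay 1.01 to 1.05 and 0.84 to 0.94 above the sham mean in single hearts, against -0.06 to 0.04 in sham hearts. Of 12 macrophage and myeloid markers 5 and 4 rose, C1qa by 0.61 and 0.87, with means of 0.32 to 0.38 and 0.36 to 0.48 above sham, against -0.06 to 0.12 in sham hearts. The 8 lymphocyte markers had 0 calls in either comparison, and the 9 endothelial ones had 1 higher and 1 lower in TAC-HDAC4-NT and 1 higher and 2 lower in TAC-luciferase over sham. Of 8 smooth muscle and pericyte markers 1 rose and 1 fell in each, and of 2 erythroid markers none passed. Of 8 cardiomyocyte markers 1 fell in TAC-HDAC4-NT over sham and 2 fell in TAC-luciferase over sham. The part of these cell types in the members' rise was not tested.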

How the data were processed

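The 9 arrays came from 9 whole hearts, 3 animals per group, and groups were taken from the sample labels. Trizol-extracted RNA was labelled as biotinylated cRNA, per the labels' protocols. Per the submitters' processing notes, the authors made the deposited log2 values with RMA. The RMA version, the probe set definitions and the build are not stated in the sources at hand. Sorting each array gave the same values 9 times, which is what quantile normalization produces. RMA compresses low values, which understates folds of weakly expressed genes. The values carry no depth.

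Of 21225 probe sets, 20239 had 1 gene symbol, 0 had several and 986 were not listed. All 20239 matched RefSeq (GRCm38.p6) by gene ID. Every column of values was used.

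A linear model over all 9 arrays was fitted in R 4.3.3 by limma 3.58.1 with its functions lmFit, contrasts.fit and eBayes (6 residual and 1.689 prior degrees of freedom) with no filter on low values, and p-values were Benjamini-Hochberg adjusted over 20239 genes and called under 0.05. No filter was applied because a requirement of 3 arrays above the 40th percentile (log2 5.66) dropped 11 of 40 members and passed 8 through TAC arrays alone. With that filter 15 of 29 members rose in TAC-HDAC4-NT over sham (10.5% of genes) and 19 of 29 in TAC-luciferase over sham (11.2%). Intervals used the same degrees of freedom.

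The alternatives were the filters, array weights, cyclic loess scaling, a trended and robust prior, a fit of only the 6 arrays compared, the replicate number and the sample code's first number as blocks, a threshold of 0.1, and each array left out. The correlation of same-numbered hearts' deviations ran from -0.116 to 0.195, so the numbers were not taken as pairs.

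The members and all lists were chosen with earlier results of these data known. All members could be named, with up to 5 called genes of each wider list by size of change. Promoters came from RefSeq, and a protein comparison of D-type cyclins was not done. Scripts were tested on simulated data. Figures used matplotlib 3.10.9 in Python 3.11.15.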

Additional observations from a re-analysis of the deposited data

How the results depend on the processing

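No member, wider-list gene or cell marker called as reported changed sign in any other setting whose fit held it. Members called in TAC-HDAC4-NT over sham numbered 14, against 24 at a threshold of 0.1, 25 with the sample code as a random block, 12 to 21 in the other settings with all hearts of both groups, and 7 to 27 with 1 heart left out. In TAC-luciferase over sham they numbered 23, against 10 with array weights, 16 to 30 in the other settings and 8 to 28 with 1 heart left out. In TAC-HDAC4-NT over TAC-luciferase they numbered 0, against 2 with array weights, and 0 in every other setting run. Over all genes that comparison called 10 (2333 at an unadjusted p under 0.05), against 349 with array weights, 32 with either filter, 0 with only the 6 arrays compared (2502 at an unadjusted p under 0.05), 123 with the sample code, 30 with the trended and robust prior, 130 at the threshold of 0.1, and 0 to 515 with 1 heart left out, 515 being without TAC-luciferase heart 1. TAC-HDAC4-NT over sham called 2757 genes and 1732 to 3057 with 1 heart left out. The cause of these shifts was not tested, beyond the fewer arrays or genes that a setting uses by construction. The sample code's first number was nested in group, with none shared between groups. Its fitted correlation was -0.162, and the median SE against sham was 0.039 with it and 0.046 in the main fit. The larger counts with the sample code are therefore no added support. With the replicate number as a block, 2454, 2745 and 13 genes passed in TAC-HDAC4-NT over sham, TAC-luciferase over sham and TAC-HDAC4-NT over TAC-luciferase, and 15, 23 and 0 members, but not the same members. Against sham, TAC-HDAC4-NT lost Bub1, Prc1, Tyms and Ube2c and gained 5, and TAC-luciferase lost Ccnb2, Ccnd1, Ect2 and Foxm1 and gained Mcm7, Mki67, Rrm1 and, as the 1 lower gene, Cdkn1b (adjusted p 0.0466). The labels do not say that a number marks a shared litter or day. With 3 hearts per group and values that hold no depth or detection call, the small changes of members near the low end of the scale are the least certain.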
